A study of Mus musculus with 15 samples.

Results

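The endoplasmic reticulum (ER) stress and unfolded protein response genes Hspa5, Hsp90b1, Pdia4, Dnajb9, Herpud1, Xbp1, Atf4, Ddit3, Trib3 and Asns were described in 15 mouse liver samples measured on Affymetrix arrays. The 10 genes were chosen by name, with earlier results of these data known. Every probe set (a group of short oligonucleotides on the array that is read as 1 value) annotated to them was used, 21 of the 22690 probe sets in the table. A dim probe set of Atf4 was left out of the tests, which leaves 20 probe sets, and the brightest one stood for each gene among the 9528 genes tested. They comprised 6 tumours and 6 samples of non-tumorous tissue from livers of mice homozygous for the Mdr2 knockout, and 3 livers of control mice heterozygous for it, all 16 months old. Mdr2, now called Abcb4, exports phosphatidylcholine from hepatocytes to bile. The controls thus carry 1 knockout allele too, and no wild-type liver was analysed here. Tumours carry the number of their mouse in the labels, so tumours 3 and 4 match knockout livers 3 and 4, the pair 5-1 and 5-2 matches liver 5, and the pair 6-1 and 6-2 matches liver 6. Knockout livers 1 and 2 have no matched tumour, so the 6 tumours stand for 4 mice. All values are from whole tissue, where fewer cells of a type and less RNA per cell cannot be told apart.

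The unfolded protein response adjusts the folding capacity of the ER to its load, and hepatocytes, which secrete most plasma proteins, have an extensive ER. Of its sensors, IRE1 splices the mRNA of Xbp1 into the form that encodes the active factor, ATF6 is cut in the Golgi to release a transcription factor, and PERK phosphorylates eIF2alpha, which lowers general translation while that of Atf4 goes up. XBP1 and ATF6 drive ER chaperones and degradation genes, whereas ATF4 drives amino acid genes such as Asns and, with Ddit3 (CHOP), the pseudokinase gene Trib3. Atf4 and Xbp1 are regulated largely after transcription, and the probe sets used here were not matched to the spliced and unspliced forms of Xbp1, so the signals are of total mRNA.

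The promoters of 4 of the genes are shown because they hold, in the 250 bases before the RefSeq start site (assembly GRCm38.p6), the response elements by which these genes are known as targets of the pathway. Windows for all 10 genes were found. Each sequence runs 5' to 3' on the strand of the gene, and the letters that match an element are in capitals.
Hspa5, chr2:34771840-34772089, plus strand: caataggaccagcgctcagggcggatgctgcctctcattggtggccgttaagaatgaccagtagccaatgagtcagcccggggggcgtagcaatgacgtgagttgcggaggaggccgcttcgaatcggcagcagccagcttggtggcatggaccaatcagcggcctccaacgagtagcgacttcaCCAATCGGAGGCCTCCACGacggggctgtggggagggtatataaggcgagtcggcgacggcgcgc
Hsp90b1, chr10:86705445-86705694, minus strand: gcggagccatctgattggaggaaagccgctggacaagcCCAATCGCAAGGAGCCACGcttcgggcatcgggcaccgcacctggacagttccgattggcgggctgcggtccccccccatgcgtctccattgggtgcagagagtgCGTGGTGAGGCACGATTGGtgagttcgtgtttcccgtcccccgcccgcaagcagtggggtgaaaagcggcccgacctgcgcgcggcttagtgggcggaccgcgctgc
Herpud1, chr8:94386179-94386428, plus strand: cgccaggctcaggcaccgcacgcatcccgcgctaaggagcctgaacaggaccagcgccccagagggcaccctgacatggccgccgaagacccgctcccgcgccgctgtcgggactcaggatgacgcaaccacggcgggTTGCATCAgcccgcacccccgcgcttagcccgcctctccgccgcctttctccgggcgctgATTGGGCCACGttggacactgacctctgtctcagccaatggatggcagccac
Asns, chr6:7693210-7693459, minus strand: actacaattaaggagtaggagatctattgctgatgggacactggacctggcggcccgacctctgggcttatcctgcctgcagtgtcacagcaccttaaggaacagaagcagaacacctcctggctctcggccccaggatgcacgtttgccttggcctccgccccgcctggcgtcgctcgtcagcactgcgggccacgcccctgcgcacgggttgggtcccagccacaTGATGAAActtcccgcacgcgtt

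The ER stress response element, searched on both strands as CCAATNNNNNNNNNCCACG, is the element that ATF6 binds next to the factor NF-Y. It occurred once in the Hspa5 window, from base -65 to -47 relative to the start site, and at 2 places in the Hsp90b1 window, from -212 to -194 and, on the opposite strand, from -107 to -89. Among all 32851 promoter windows of this length, 37 (0.113%) held it. The shorter form ATTGGNCCACG was in the Herpud1 window from -52 to -42 and in 10 of all windows (0.0304%). The element TGATGNAA, bound by ATF4 with a C/EBP partner, was in the Asns window from -23 to -16 and, on the opposite strand, in the Herpud1 window from -112 to -105, against 1134 of all windows (3.45%). The XBP1 element TGACGTGG was in none of the 10 windows and in 185 of all (0.563%). No matches overlapped each other. A match describes these letters in this window only.

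The arrays were scaled alike, with trimmed means of 150.067 to 150.085 and median signals of 35.8 to 51.2 across samples. The signal ratio of the 3' to the 5' probe set of actin, a measure of RNA breakdown, averaged 1.78 ± 0.21 in tumours, 2.09 ± 0.39 in knockout livers and 2.99 ± 0.41 in heterozygous livers (SD, n = 6, 6 and 3). In exact two-sided permutation tests the p was 0.0238 for tumours against heterozygous livers (adjusted over 6 tests 0.0714), which is the smallest p this design allows. It was 0.0476 for knockout against heterozygous livers (adjusted 0.0952) and 0.121 for tumours against knockout livers (adjusted 0.145). The 6 tests include the same ratio of Gapdh. That ratio averaged 0.97 ± 0.10 in tumours, 1.03 ± 0.10 in knockout livers and 1.17 ± 0.06 in heterozygous livers. In the same order of comparisons its permutation p was 0.0238 (adjusted 0.0714), 0.0714 (adjusted 0.107) and 0.290 (adjusted 0.290). The summed signal of 9 hepatocyte markers was 56470 to 74040 in tumours and 67250 to 86249 in knockout livers, against 85462 to 94865 in heterozygous livers. That of 8 macrophage markers was 1134 to 7496, 2628 to 4518 and 1761 to 1976 in the same order. Stellate cell markers (8 genes) summed to 668 to 2490, 977 to 2868 and 514 to 804, endothelial markers (8 genes) to 449 to 965, 767 to 1175 and 580 to 723, and bile duct markers (7 genes, Cftr below the filter) to 99.7 to 419.8, 290.7 to 483.5 and 153.5 to 261.3. Plasma and B cell markers (7 genes) summed to 83.3 to 180.7, 119.8 to 206.1 and 135 to 186.8, with Pou2af1, Cd79b, Tnfrsf17 and Igll1 below the filter. Pancreatic acinar markers (4 genes, Cpa1 below the filter) summed to 208.8 to 577.9 and 281.4 to 431.9, against 740.3 to 978.9 in heterozygous livers. The acinar sums of tumours and knockout livers lay below those of heterozygous livers, as did the hepatocyte sums of tumours. The macrophage, stellate cell, endothelial and bile duct sums of knockout livers lay above those of heterozygous livers. The ranges of all 7 marker lists overlapped between tumours and knockout livers. The part of these levels in the results was not tested.

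None of the 10 genes passed the test in any comparison; the threshold was a p of 0.05 in limma, adjusted by Benjamini-Hochberg across the whole set of genes. For knockout against heterozygous livers 0 of 10 passed, where 1.7% of all genes did, and the median log2 change of the 10 genes was 0.08 against -0.02 over all genes. For tumours against knockout livers 0 of 10 passed, where 0.136% of all genes did, with medians of 0.14 and 0.01. For tumours against heterozygous livers 0 of 10 passed, where 6.97% of all genes did, with medians of 0.16 and -0.02. The lowest adjusted p among the 10 genes was 0.222, 0.338 and 0.168 in these comparisons. At an unadjusted p under 0.05 limma named 1 gene (Trib3) where 15.7% of all genes passed, 2 genes (Dnajb9 and Pdia4) where 10.3% passed, and 2 genes (Hsp90b1 and Herpud1) where 22.4% passed. Values of the groups did not overlap for 1 gene, Trib3, between knockout and heterozygous livers, where 14.8% of all genes were apart. None of the 10 was apart between tumours and knockout livers (0.693% of all genes) or between tumours and heterozygous livers (11.5%).

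**Figure D1:**
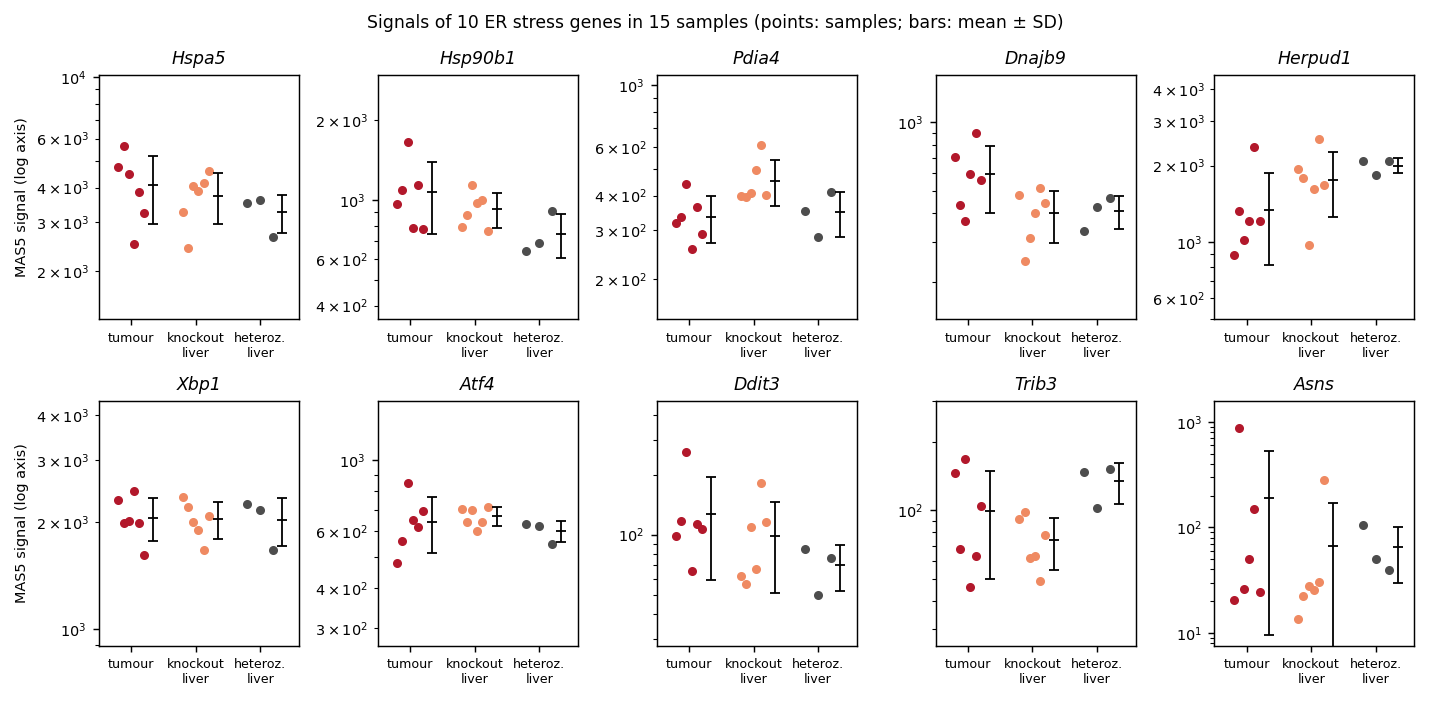
Deposited MAS5 signal (log axis, arbitrary units) of the brightest probe set of each of the 10 genes; each point is 1 sample in the order of its number, and bars give mean ± SD of 6 tumours, 6 knockout livers and 3 heterozygous livers. The groups overlap for every gene except Trib3 in knockout against heterozygous livers, and Asns ranges from 20.8 to 875.2 in tumours. For Asns in tumours and in knockout livers the SD exceeds the mean, so the lower bars are cut short of the full SD. That of knockout livers also runs off the axis.

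The size of change that the data leave room for differed between genes. The 95% intervals of the log2 change lay within 1 in either direction, that is, within a doubling or a halving of signal, for 7 of the 10 genes in knockout against heterozygous livers, for 9 in tumours against knockout livers and for 5 in tumours against heterozygous livers. Asns was outside in all 3 comparisons, with intervals from -2.44 to 1.33, from -0.75 to 2.35 and from -1.64 to 2.13. Xbp1 and Atf4 had the narrow ones: that of Xbp1 in tumours against knockout livers ran from -0.27 to 0.29. All log2 changes are of the signal plus 9.1, which understates the change of dim genes such as Asns.

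**Figure D2:**
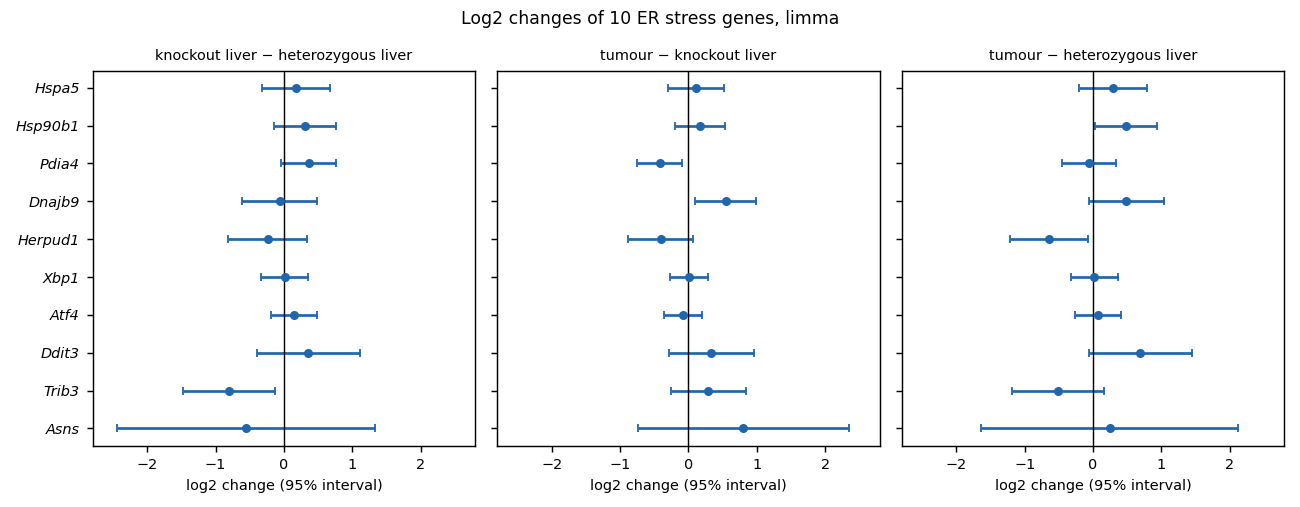
Log2 change of each gene with its 95% interval from limma, in knockout against heterozygous livers, tumours against knockout livers and tumours against heterozygous livers. The interval of Trib3 in the first panel (-1.47 to -0.13), those of Pdia4 (-0.75 to -0.10) and Dnajb9 (0.10 to 1.00) in the second, and those of Hsp90b1 (0.03 to 0.93) and Herpud1 (-1.22 to -0.07) in the third leave out 0 without an adjusted p under 0.05.

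Among the ER chaperones, Hspa5 (BiP), the HSP70 of the ER lumen that also holds the stress sensors inactive, had signals of 2511.5 to 5657.4 with a median of 4166.6 in tumours, 2420.7 to 4593.2 with a median of 3978.2 in knockout livers, and 3508.7, 3602.2 and 2666.7 in heterozygous livers. Tumour 4 had the highest signal and knockout liver 2 the lowest, and the 3 groups overlapped. The mean signal was 4082 ± 1127 in tumours, 3729 ± 772 in knockout livers and 3259 ± 515 in heterozygous livers (SD, n = 6, 6 and 3), with log2 changes of 0.18 ± 0.24 (SE, adjusted p = 0.768) in knockout against heterozygous livers, 0.11 ± 0.20 (adjusted p = 0.898) in tumours against knockout livers and 0.29 ± 0.24 (adjusted p = 0.517) in tumours against heterozygous livers.

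Hsp90b1 (GRP94), the HSP90 of the ER, had 773.4 to 1643.1 with a median of 1025.5 in tumours, 761 to 1140.7 with a median of 925.25 in knockout livers, and 639.1, 688 and 907.3 in heterozygous livers. Tumour 5-1 was the highest. Its change of 0.48 ± 0.21 in tumours against heterozygous livers did not pass (adjusted p = 0.191), nor did 0.31 ± 0.21 in knockout against heterozygous livers (adjusted p = 0.523) or 0.17 ± 0.18 in tumours against knockout livers (adjusted p = 0.806). The second probe set of Hsp90b1 had the opposite sign in the comparisons with heterozygous livers, -0.26 ± 0.20 for knockout livers and -0.04 ± 0.20 for tumours, so a direction for the gene depends on the probe set.

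Pdia4, a protein disulfide isomerase that forms and rearranges disulfide bonds, had 257.1 to 440.8 with a median of 326.65 in tumours, 396.6 to 607.6 with a median of 404.5 in knockout livers, and 351.4, 282.9 and 411.7 in heterozygous livers. Of the 6 tumours, 5-1 alone lay within the range of the knockout livers. The log2 change in tumours against knockout livers was -0.42 ± 0.16 (1.34-fold lower, adjusted p = 0.338), and it was 0.36 ± 0.19 (adjusted p = 0.381) in knockout against heterozygous livers and -0.06 ± 0.19 (adjusted p = 0.891) in tumours against heterozygous livers. Dnajb9 (ERdj4), a J-domain cochaperone of BiP, had 371.4 to 900.6 with a median of 576.55 in tumours, 247.4 to 515.1 with a median of 421.85 in knockout livers, and 336.2, 424.6 and 464.8 in heterozygous livers. Tumours 3, 5-2, 6-1 and 6-2 were above all knockout livers, and tumours 4 and 5-1 were among them. The change in tumours against knockout livers was 0.55 ± 0.21 (1.46-fold, adjusted p = 0.362), that in tumours against heterozygous livers 0.49 ± 0.26 (adjusted p = 0.283) and that in knockout against heterozygous livers -0.06 ± 0.26 (adjusted p = 0.938).

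Herpud1, a membrane protein that helps to assemble the ubiquitin ligase complex of ER-associated degradation, had 893.2 to 2366.4 with a median of 1211.8 in tumours, 977.7 to 2534.2 with a median of 1736.6 in knockout livers, and 2083.6, 1841.8 and 2074.5 in heterozygous livers. Tumours 3, 4, 5-1, 5-2 and 6-2 were below all heterozygous livers, and tumour 6-1 was above all of them. The change in tumours against heterozygous livers was -0.65 ± 0.27 (1.57-fold lower, adjusted p = 0.168), and without tumour 6-1 it was -0.83 (adjusted p = 0.0371), so that 1 sample decides the call. In tumours against knockout livers the change was -0.41 ± 0.22 (adjusted p = 0.551), and in knockout against heterozygous livers it was -0.24 ± 0.27 (adjusted p = 0.722). The second probe set gave 445.8 to 1557.1 with a median of 720.35 in tumours, 1146.9 to 1764.5 with a median of 1248.75 in knockout livers, and 1206.1, 1075.6 and 1350.2 in heterozygous livers. There the 5 tumours other than 6-1 lay below every sample of both other groups, with a change of -0.75 ± 0.22 (adjusted p = 0.211 over all probe sets) in tumours against knockout livers and -0.61 ± 0.26 (adjusted p = 0.184) in tumours against heterozygous livers.

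Genes beside Herpud1 on chromosome 8 were also low in some of these tumours. The 40 tested genes next to it, 20 on each side from Snx20 to Got2, had median log2 differences from the mean of the knockout livers of -0.46 in tumour 3, -0.15 in tumour 4, -0.34 in tumour 5-1, 0.12 in tumour 5-2, -0.19 in tumour 6-1 and -0.66 in tumour 6-2. Herpud1 itself differed by -0.91, -0.35, -0.72, -0.48, 0.48 and -0.48 in the same samples. Tumours 3, 5-1 and 6-2 were thus low in both, tumour 5-2 was low in Herpud1 alone, and tumour 6-1 was high in Herpud1 alone. In the knockout livers the median of the neighbours lay between -0.17 and 0.12, and in the heterozygous livers between 0.13 and 0.26. The neighbours of the other 9 genes had medians of -0.30 to 0.32 in the tumours. These neighbours were looked at with earlier results on this stretch known, and their part in the Herpud1 values was not tested.

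Of the transcription factors, Xbp1 had 1617 to 2442.1 with a median of 2000.55 in tumours, 1669.8 to 2362.1 with a median of 2044.6 in knockout livers, and 2256.4, 2168.4 and 1669.3 in heterozygous livers. The groups overlapped along nearly their whole range, and the changes were 0.01 ± 0.16 (adjusted p = 0.988) in knockout against heterozygous livers, 0.01 ± 0.13 (adjusted p = 0.992) in tumours against knockout livers and 0.02 ± 0.16 (adjusted p = 0.966) in tumours against heterozygous livers. Atf4 had 477.6 to 848 with a median of 635.6 in tumours, 604 to 716.2 with a median of 671.6 in knockout livers, and 630.9, 625.4 and 549.8 in heterozygous livers. Tumour 3 was the lowest and tumour 5-1 the highest. Its changes were 0.15 ± 0.16 (adjusted p = 0.702), -0.08 ± 0.13 (adjusted p = 0.898) and 0.07 ± 0.16 (adjusted p = 0.837) in the same comparisons.

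Ddit3 (CHOP), a transcription factor linked to cell death under prolonged ER stress, had 65.3 to 260.9 with a median of 110.1 in tumours, 56.5 to 181.9 with a median of 88.4 in knockout livers, and 85, 49.8 and 76.3 in heterozygous livers. Tumour 5-1 and knockout liver 5, which come from the same mouse, were the highest of their groups, while tumour 5-2 of that mouse was the lowest tumour. The change was 0.69 ± 0.36 in tumours against heterozygous livers (1.62-fold, adjusted p = 0.263), 0.36 ± 0.36 in knockout against heterozygous livers (adjusted p = 0.673) and 0.33 ± 0.29 in tumours against knockout livers (adjusted p = 0.753).

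Trib3, a pseudokinase that ATF4 and CHOP induce, had 45.8 to 167.7 with a median of 85.95 in tumours, 49.1 to 98.5 with a median of 70.55 in knockout livers, and 147.4, 102.4 and 151.6 in heterozygous livers. Every knockout liver was below every heterozygous liver, by as little as 98.5 against 102.4, and the tumours covered the range of both. The change in knockout against heterozygous livers was -0.80 ± 0.32 (1.74-fold lower, adjusted p = 0.222). When these 2 groups were fitted alone, without the tumours, the adjusted p was 0.0254, in a fit where 1000 of all 9528 genes were called, so the call depends on which samples are fitted. The change was 0.29 ± 0.26 (adjusted p = 0.766) in tumours against knockout livers and -0.51 ± 0.32 (adjusted p = 0.363) in tumours against heterozygous livers. The second, dimmer probe set of Trib3 did not show the difference, with -0.03 ± 0.49 in knockout against heterozygous livers (adjusted p = 0.989 over all probe sets).

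Asns, the asparagine synthetase that ATF4 induces when amino acids run short, had 20.8 to 875.2 with a median of 38.3 in tumours, 13.7 to 279.9 with a median of 26.95 in knockout livers, and 105, 50.6 and 39.3 in heterozygous livers. The high values were those of tumour 4 (875.2), knockout liver 6 (279.9) and tumour 6-1 (150), and the other 5 knockout livers lay between 13.7 and 30.4, below every heterozygous liver. The second probe set gave its highest signals in the same samples, 348.6, 117.8 and 77.2, but not the separation: the other 5 knockout livers had 0.5 to 15.1, against 7.8, 20.7 and 14.7 in heterozygous livers. The change was 0.80 ± 0.74 in tumours against knockout livers (adjusted p = 0.771), 0.25 ± 0.89 in tumours against heterozygous livers (adjusted p = 0.910) and -0.56 ± 0.90 in knockout against heterozygous livers (adjusted p = 0.815).

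Among the 10 genes, Asns had the widest spread within the tumours and within the knockout livers. The SD of its log2 values was 1.91 among tumours, where 99.5% of all genes had a smaller one, and 1.31 among knockout livers, where 99.9% had a smaller one. The median over all genes was 0.43 in tumours and 0.29 in knockout livers. At the other end, Atf4 had an SD of 0.10 among knockout livers, with 2.46% of genes below it, and Xbp1 one of 0.21 among tumours, with 8.21% below it. Trib3 (0.67) and Ddit3 (0.61) followed Asns among tumours, with 78.1% and 73.2% of genes below them.

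In the 6 tumours set against the non-tumorous liver of the same mouse, Pdia4 was lower in 6 of 6, by log2 differences of -1.21 to -0.13 with a median of -0.45. Dnajb9 was higher in 5 of 6 (median 0.27), with tumour 5-1 lower, and Herpud1 was lower in 5 of 6 on both probe sets (medians -0.38 and -1.05), with tumour 6-1 higher. Hspa5 was higher in 3 and lower in 3. Asns was higher in 2 and lower in 4, from -3.11 in tumour 6-2 to 4.66 in tumour 4. With the 4 mice as a fixed block in limma none of the 10 genes passed and 0 of all genes did, with 728 at an unadjusted limma p below 0.05. Hspa5 (-0.03) and Ddit3 (-0.02) then had the opposite sign to the fit over all samples.

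**Figure D3:**
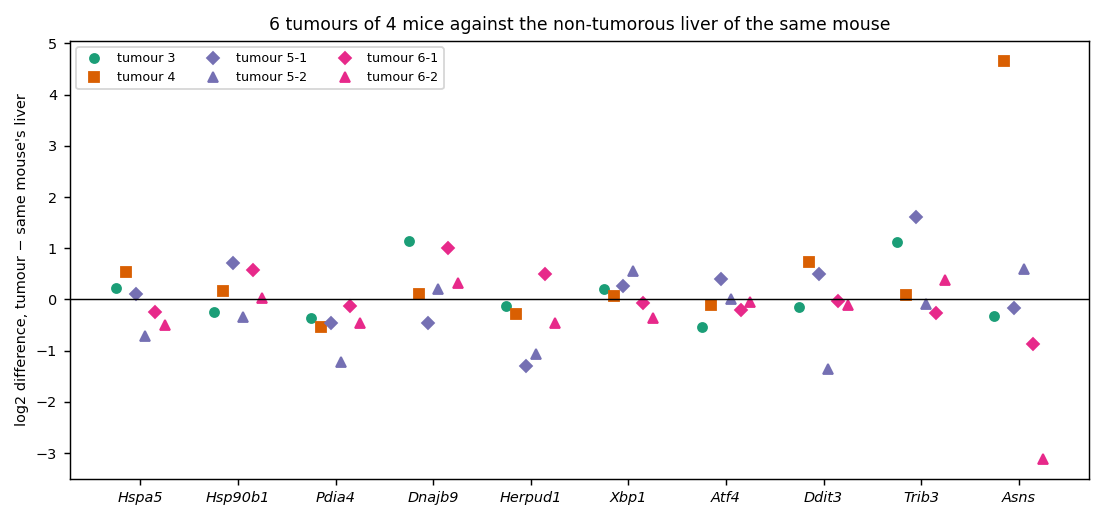
Log2 difference of each tumour from the non-tumorous liver of the same mouse for the 10 genes; colours mark the 4 mice and symbols the tumours. All 6 points of Pdia4 lie below 0, and Asns spans -3.11 to 4.66.

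The probe sets not used for a gene, 10 in all, gave 0 calls when every probe set was tested on its own, where 1.82% of probe sets passed in knockout against heterozygous livers, 0.124% in tumours against knockout livers and 6.4% in tumours against heterozygous livers. At an unadjusted p under 0.05, that of Herpud1 was the single one in each comparison with tumours, and there was none in knockout against heterozygous livers. The second probe set of Hspa5 had 1116.9 to 2368.7 in tumours, 1232.4 to 1758.6 in knockout livers, and 1503.8, 1265.4 and 1442.6 in heterozygous livers, and its changes (0.07, 0.19 and 0.27) had the sign of those of the first. Of the 3 other Xbp1 probe sets, the dimmest was higher in 6 of 6 tumours than in the liver of the same mouse (median 0.46), with a change of 0.26 ± 0.18 in tumours against knockout livers (adjusted p = 0.684). The brighter ones did not share this: the brightest of the 3 was higher in 3 and lower in 3 (median 0.04). The remaining one was lower in 5 of 6 (median -0.16). The Pdia4 probe set not used for the gene was dim, 7.8 to 33.7 in tumours, 14.8 to 43 in knockout livers and 17.6 to 28.4 in heterozygous livers, and had the tumours lower than their own liver in 1 of 6. The Atf4 probe set below the filter had signals of 2.5 to 18.8 over all samples. Probe sets whose names end in _x_at or _s_at, among them the one used for Xbp1 and the second ones of Trib3 and Asns, can bind more than 1 transcript.

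By the correlation of log2 values over 15 arrays, with the mean of each group taken out, the genes most like Hspa5 among the 9528 tested were Rbp4 (Pearson r = 0.90), Tmem214 (0.82), Zc3h7a (0.80), Frat2 (0.80) and Naa60 (0.80). Those most like Trib3 were Txnrd1 (0.88), Psma1 (0.88), Eml3 (0.85), Zeb1 (0.84) and Zyx (0.83). None of the other 9 genes was among the 5 nearest of Hspa5 or of Trib3. These are the top of a search over all genes, the tumours of 1 mouse share an animal, and no test was made.

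The rest of the pathway was read from 7 lists with 125 tested genes, the 10 among them: sensors and transducers, ER chaperones and oxidative folding, ER-associated degradation, ATF4 and CHOP targets, aminoacyl-tRNA synthetases, ER translocation and vesicle export, and cytosolic heat shock proteins. On the probe set used, no gene of any list was called in knockout against heterozygous livers or in tumours against knockout livers. Another probe set of Tor1b (0.96, adjusted p = 0.0288 over all probe sets) passed in knockout against heterozygous livers, where 1.82% of probe sets did. So did a dim one of Ube2g2 (1.38, adjusted p = 0.0311), with mean signals of 44.8 and 11.6. The brighter one of Ube2g2 gave 0.21 there. In tumours against heterozygous livers 7 of the 125 were called on the probe set used, 6 higher and 1 lower, a share close to the 6.97% of all genes.

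Of the sensors and transducers (14 tested), Eif2ak3, which encodes PERK, rose to 129 to 210.3 in tumours, with 100.2 to 177 in knockout livers, against 128, 78.9 and 91.5 in heterozygous livers (0.78 ± 0.21 in tumours against heterozygous livers, adjusted p = 0.0317). Its call ended without tumour 5-2 (adjusted p = 0.0572), heterozygous liver 2 (0.169) or heterozygous liver 3 (0.123), and with the tumours of 1 mouse averaged (0.0667). Ppp1r15b (CReP), the constitutive subunit that directs a phosphatase to eIF2alpha, fell to 332.9 to 629.8 in tumours, with 492.8 to 714.3 in knockout livers, against 901.1, 780.6 and 898.3 in heterozygous livers (-0.83 ± 0.18, 1.77-fold lower, adjusted p = 0.0108). All 12 knockout samples were below all 3 heterozygous livers, and the change of -0.62 ± 0.18 in knockout against heterozygous livers had an adjusted p of 0.0906. The call of Ppp1r15b ended without heterozygous liver 1 (adjusted p = 0.058) or 3 (0.0621). The median of this list was 0.04.

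Of the ER chaperones and folding enzymes (23 tested, 3 higher, median 0.40 against -0.02 for all genes), Dnajc10 (ERdj5), a reductase that unfolds proteins for degradation, rose to 214.7 to 329.2 in tumours, with 155.1 to 234.8 in knockout livers, against 115.5, 128.7 and 150.1 in heterozygous livers (0.85 ± 0.17, adjusted p = 0.00741). Without heterozygous liver 1 its adjusted p was 0.053. Tor1b, a torsin ATPase of the ER lumen, rose to 239.7 to 583.9, against 179.2, 172.9 and 134.5 (0.89 ± 0.25, adjusted p = 0.0416). The rise of Tor1b was not particular to tumours, with mean signals of 326 in tumours, 310 in knockout livers and 162 in heterozygous livers. The third, Sdf2l1, a cofactor of BiP and its J-domain partners, stood outside the naming rule and was named after its value was seen (0.79 ± 0.22, adjusted p = 0.0398). Tor1b and Sdf2l1 were the weak calls, kept in 13 and 12 of 26 alternative fits and lost when any 1 of the heterozygous livers was left out. In ER-associated degradation (18 tested, median -0.12), Ubxn4 (erasin), which tethers the ATPase p97 to the ER membrane, rose to 349.4 to 554.2 in tumours, against 221.1, 229.3 and 258.1 (0.84 ± 0.18, adjusted p = 0.00858), and its call ended without heterozygous liver 1 (0.0526). The mean signal of Ubxn4 was 434 in tumours, 350 in knockout livers and 236 in heterozygous livers.

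Of 25 ATF4 and CHOP targets none was called (median 0.25), and the brightest, Shmt2, the mitochondrial serine hydroxymethyltransferase, had -0.38 ± 0.19 (adjusted p = 0.244) in tumours against heterozygous livers. Of 11 aminoacyl-tRNA synthetases (median -0.15), Gars rose to 422.2 to 569.8 in tumours, against 290.6, 250.5 and 269.6 in heterozygous livers (0.77 ± 0.15, adjusted p = 0.00640). The mean signal of Gars was 469 in tumours, 389 in knockout livers and 270 in heterozygous livers. Of 20 translocation and export genes none was called (median -0.05), with Sar1b, a GTPase of secretory vesicle budding, at 0.07 ± 0.29 (adjusted p = 0.923). Of 14 heat shock genes none was called (median 0.50), with Hspa8 at 0.36 ± 0.28 (adjusted p = 0.476). All list counts are of the probe set used for each gene. Another probe set of Hsp90aa1 (adjusted p = 0.0151 over all probe sets), Aldh18a1 (0.0273), Nars (0.0437) and Ube2g2 (0.0204) passed as higher in tumours against heterozygous livers. Another of Gpt2 passed as lower there (0.0469). The probe sets used for these genes did not pass, and 6.4% of all probe sets did. The list medians in knockout against heterozygous livers were 0.27 for chaperones, 0.43 for heat shock genes and between -0.16 and 0.04 for the other 5 lists. Where a called gene had other probe sets, they gave 0.38 and 1.05 for Dnajc10 (adjusted p = 0.280 and 0.0308 over all probe sets), 0.54 and 0.89 for Tor1b (0.0816 and 0.0189), and 0.48 and 0.25 for Ubxn4 (0.305 and 0.528). All 7 called genes lost their call with the actin ratio as a covariate (adjusted p of 0.0841 to 0.648). They also lost it when tumours and heterozygous livers were fitted alone (0.0585 to 0.179). Over all genes the calls fell from 664 to 24 with the covariate and to 124 with the groups alone. The actin ratios of tumours (1.51 to 2.06) and heterozygous livers (2.55 to 3.37) did not overlap, so ratio and group cannot be told apart here. With the covariate the log2 change was -0.39 for Ppp1r15b and 0.62 for Sdf2l1, smaller than without it, and 0.82 for Eif2ak3, 0.92 for Dnajc10, 0.97 for Gars, 1.00 for Ubxn4 and 1.67 for Tor1b, each larger than without it.

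**Figure D4:**
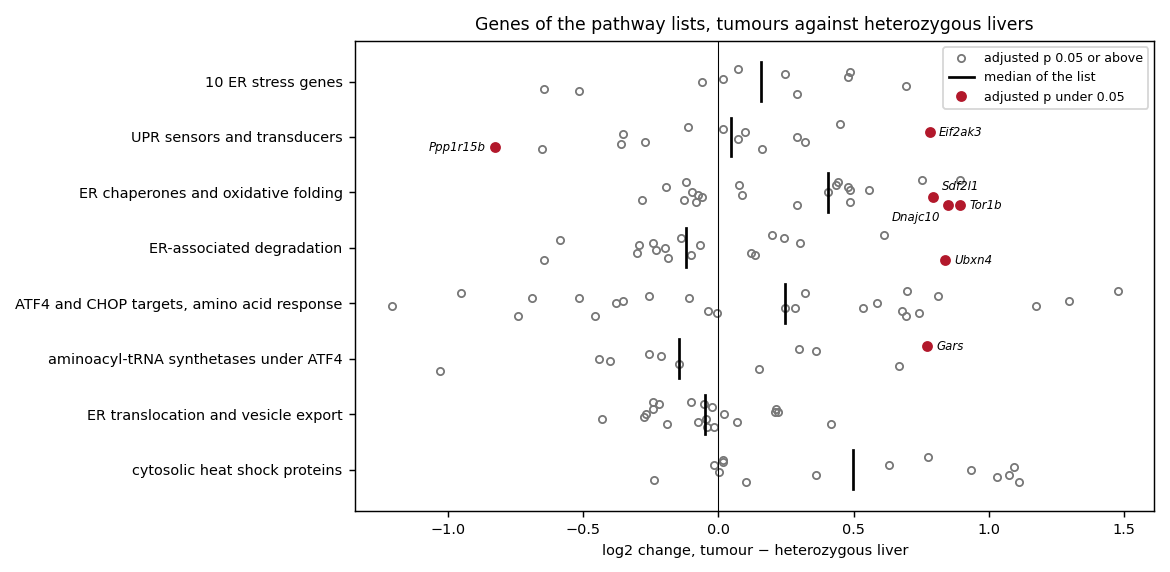
Log2 change in tumours against heterozygous livers of the genes of the 10-gene set and of the 7 pathway lists, with the median of each list as a black bar. Filled points mark the 7 genes with an adjusted p under 0.05, of which Ppp1r15b alone lies below 0, and none of the 10 genes, which the lists hold too, is filled.

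Knockout liver 6, with the high Asns, also had high signals of many genes of these lists, which was looked for after the Asns values were seen and is given without a test. Of the 25 ATF4 and CHOP targets, knockout liver 6 was the highest of the 6 knockout livers in 13 (52%), and of the 11 aminoacyl-tRNA synthetases in 7 (63.6%), against 18.4% of all genes. The 13 include Asns, by which this liver was picked. It was the highest in 10 of the 23 chaperones (43.5%), 8 of the 20 translocation and export genes (40%), 6 of the 18 degradation genes (33.3%), 4 of the 14 sensors (28.6%) and 4 of the 14 heat shock genes (28.6%). Asns, Psat1, Phgdh, Psph and Mthfd2 make asparagine, serine and one-carbon units, and Slc3a2 is the heavy chain of amino acid exchangers. In knockout liver 6 and as the range of the other 5, Psat1 had 152.2 and 1.4 to 9.7, Mthfd2 127.6 and 25.1 to 40.1, Slc3a2 1057.1 and 383.1 to 469.9, Psph 202.5 and 61.1 to 98.3, and Phgdh 188.6 and 41.5 to 135.6. The synthetase gene Iars had 496.3 and 236.5 to 296.4. Slc7a11 (3.9 and 16.1 to 32.8) and Stc2 (4.3 and 8.6 to 33.1) were the lowest there. All these signals of Slc7a11 and Stc2, and those of Psat1 in the other 5 livers, lay below the lowest array median, 35.8. Signals this close to the constant of 9.1 leave the size of these differences uncertain. Ddit3 (115.4 and 56.5 to 181.9) and Trib3 (77.9 and 49.1 to 98.5) were within the range of the others. Atf4 was also the highest in knockout liver 6 on the probe set used, at 716.2 against 604 to 703.3. On the other Atf4 probe set past the filter, knockout livers 1 and 4 were higher than knockout liver 6.

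**Figure D5:**
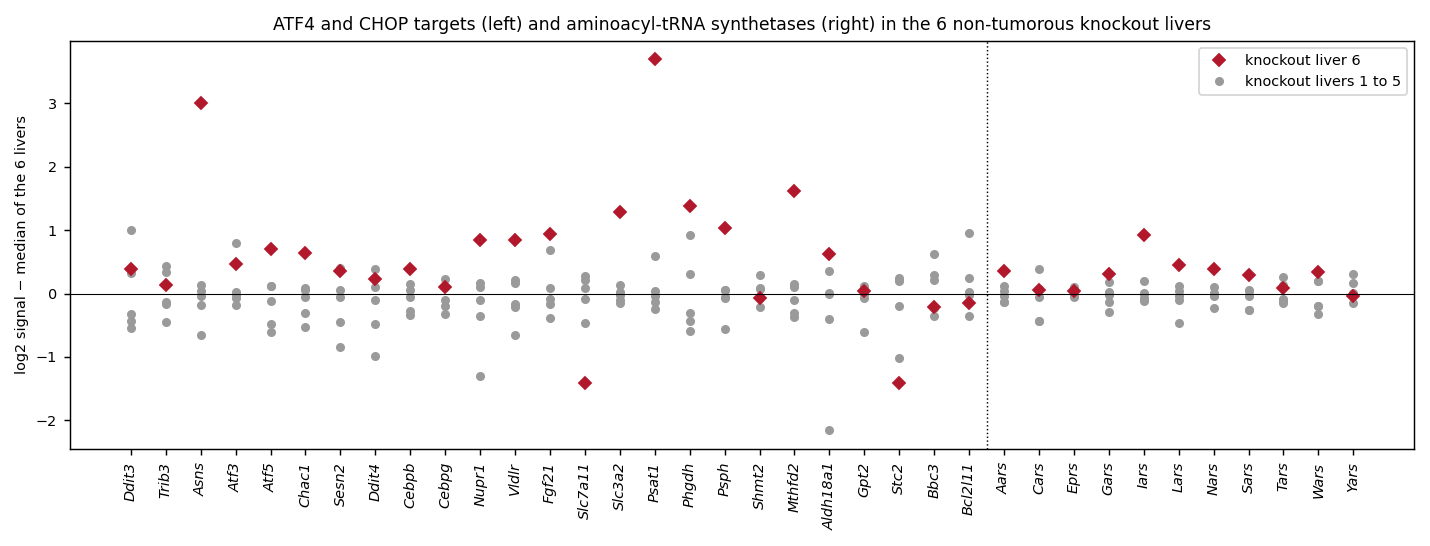
Log2 signal of 25 ATF4 and CHOP targets and 11 aminoacyl-tRNA synthetases in the 6 knockout livers, each gene relative to the median of the 6. Knockout liver 6 is the highest in 13 and 7 of them, with Asns and Psat1 farthest above the others, and is the lowest in Slc7a11 and Stc2. The signals of Slc7a11 and Stc2, and of Psat1 in the other livers, are dim, below the lowest array median of 35.8.

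Tumour 4, with the highest Asns, had Psat1 at 55.3, Slc3a2 at 507.2 and Mthfd2 at 41.3, where the medians of the 6 tumours were 64.1, 619.7 and 40.7. It was the highest tumour in 8% of the ATF4 and CHOP targets and in 10.9% of all genes. In other lists the share was 30% for translocation and export genes, 27.3% for aminoacyl-tRNA synthetases and 13.0% for chaperones. For sensors and for heat shock genes it was 7.14% each, and for degradation genes 0%. Tumour 6-1 had Psat1 at 123.4 and Mthfd2 at 71.4 but the lowest Slc3a2 of the 6 tumours, 495.6, and tumour 5-2, whose Asns was 50.4, had the highest Psat1 of all, 198.7. Tumour 5-1, the sample with the highest Ddit3, Atf4, Hsp90b1, Pdia4 and Trib3 of the tumours, was the highest tumour in 5 of the 10 genes (50%) and in 28% of the ATF4 and CHOP targets, where it was the highest tumour in 28.5% of all genes.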

How the data were processed

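The deposited values are intensity signals per probe set on a linear scale, made with MAS5 per the submitters' processing notes; its version and settings were not stated. Of 22690 probe sets 64 controls were left out, and by the probe annotation 20380 had 1 gene, 691 several and 1555 none. Symbols were compared with RefSeq (GRCm38.p6), which held 20351 of them and changed 0. The filter asked for a signal above the array's 40th percentile on 3 or more arrays (leaving 16120 probe sets, 14796 with 1 gene), and the brightest per gene was tested. The signal plus 9.1, the 20th percentile, was put on the log2 scale. All 15 arrays were fitted together in limma 3.58.1 (lmFit, eBayes with a trend; statmod 1.5.0, R 4.3.3) with the animal as a random block (consensus correlation -0.0176), and p-values were adjusted by Benjamini-Hochberg. With group means taken out, samples of 1 mouse correlated from -0.155 to 0.0879 (6 pairs) and livers and tumours of different mice from -0.102 to 0.168 (30 pairs), so the pairing rests on the labels. Separate animals are named for all livers, and p-values count 2 tumours of 1 mouse nearly as separate samples. The number of arrays limits the precision. Named were all 10 genes, the 2 largest rises and falls among called genes of each list or, with no call, the brightest. The members and lists were chosen with earlier results of these data known. Permutation tests used Python 3.11.15 and scipy 1.17.1. The fit was tested on simulated data.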

Additional observations from a re-analysis of the deposited data

Results flagged for a closer look

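Among the 40 sets of 6 tumours or 6 knockout livers examined over the probe sets past the filter, 4 held a sample far from the others, judged by its gap to the nearest sample divided by the range of the group, both on the log2(signal + 9.1) scale (Dixon's test at 95%). About 1 in 20 groups passes by chance, which is 2 of 40 here. Knockout liver 6 was the highest knockout liver on both probe sets of Asns, with a ratio of 0.784 for the one used for the gene (signal 279.9) and 0.642 for the other (117.8). Knockout liver 5 was the lowest on the second probe set of Trib3 (0.782, signal 7.7). Tumour 6-2 was the lowest on the second probe set of Pdia4 (0.632, signal 7.8). Both of these last probe sets are dim, and the probe sets used for Trib3 and Pdia4 had no such sample.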

How the results depend on the processing

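The number of 10 genes called stayed at 0 except in 2 fits: 1 (Trib3) for knockout against heterozygous livers with these groups alone, and 1 (Herpud1) for tumours against heterozygous livers without tumour 6-1, so leaving out 1 array gave 0 to 1 there. The second Herpud1 probe set was then called too (0 to 1) in both comparisons with tumours. The direction of 7, 6 and 6 of the 10 genes never turned in 26, 27 and 26 alternatives for knockout against heterozygous livers, tumours against knockout livers and tumours against heterozygous livers. Over all genes, 162 were called in knockout against heterozygous livers, with 293 over all probe sets, 349 with tumours of 1 mouse averaged, 22 with the actin ratio as a covariate, 1000 with the groups alone and 36 to 305 without 1 array. In tumours against knockout livers 13 were called, with 20 over all probe sets, 4 with no constant added, 50 with tumours averaged, 0 with the actin covariate (745 at an unadjusted p under 0.05), 0 with the replicate block of 4 mice (728), 0 with the groups alone (879) and 0 to 67 without 1 array. In tumours against heterozygous livers 664 were called, with 1031 over all probe sets, 24 with the actin covariate, 124 with the groups alone and 222 to 783 without 1 array.

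Changes that turned, other than by leaving out 1 array, were Asns in knockout against heterozygous livers with the actin covariate (2.04), Xbp1 in tumours against knockout livers with arrays centred on the median (-0.030), Hspa5 (-0.031) and Ddit3 (-0.016) there with the replicate block, and Atf4 in tumours against heterozygous livers with tumours averaged (-0.00055). Without 1 array, the range was -0.13 to 0.091 for Xbp1 and -0.19 to 0.067 for Dnajb9 in knockout against heterozygous livers, -0.0084 to 0.24 for Hspa5, -0.044 to 0.073 for Xbp1 and -0.16 to 0.0026 for Atf4 in tumours against knockout livers, and -0.12 to 0.099 for Xbp1, -0.41 to 0.61 for Asns, -0.013 to 0.15 for Atf4 and -0.20 to 0.063 for Pdia4 in tumours against heterozygous livers. The actin covariate also gave 3.94 for Asns in tumours against heterozygous livers (0.25 without it), and for Hspa5 0.92 there (0.29 without it) and 0.62 in knockout against heterozygous livers (0.18 without it), none of them called. The cause of these shifts was not tested. With the replicate block no call of the 10 genes changed. Dim probe sets (Asns, the second ones of Trib3 and Pdia4, and in the lists Psat1, Slc7a11 and Stc2) are limited by signal close to the constant added.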
